A study of Mus musculus with 6 samples.

Results

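The miRNAs described here are the 3 arms of the miR-221 and miR-222 pair that the rule names, mmu-miR-221-3p, mmu-miR-221-5p and mmu-miR-222-3p, chosen by name out of 1189 entries. All 3 had reads in each of the 6 libraries. The files also list miR-222-5p, the other arm of the miR-222 hairpin, and its values are given beside them. Small RNA was sequenced from the prefrontal cortex of wild type male C57BL/6 mice aged 18 months (the number in the sample names is 17), with 1 library per mouse, in 3 mice with postoperative neurocognitive disorder (PND) and 3 control (CON) mice. The PND mice were exposed to 1.5% isoflurane for 30 min and then had an exploratory laparotomy of 30 min under isoflurane. After the operation, lidocaine cream and povidone iodine were put on their wounds. The CON mice had neither anesthesia nor operation. Both groups went through the behavioural tests, including foot shock, and were perfused with saline under deep isoflurane before the cortex was taken. The effects of anesthesia, surgery and the wound creams cannot be told apart in this design.

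miR-221 and miR-222 are related miRNAs made from neighbouring hairpins. A miRNA hairpin is cut into a 5p and a 3p arm. Usually one arm is kept in the silencing complex, where its seed, bases 2 to 8, pairs with target mRNAs, while the other arm is mostly degraded. The pair is known for repressing Cdkn1b, an inhibitor of the cell cycle, and Kit, the receptor of stem cell factor. It is abundant in endothelial cells, and in neuron-like cells it is induced by growth factor signalling. Target mRNAs were not analysed here.

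The mature sequences are shown because the 3p arms of both hairpins share their seed, so that both can pair with the same seed sites, whereas the 5p arm of miR-221 has another seed. They are RefSeq sequences on GRCm38.p6, which held 3 of the 4 arms and 997 of the 1189 entries by name. The capitals mark the seed.
miR-221-3p: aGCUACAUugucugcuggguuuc
miR-222-3p: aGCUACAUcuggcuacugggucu
miR-221-5p: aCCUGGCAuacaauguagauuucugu
The first 8 bases of miR-221-3p and miR-222-3p were identical, and so was a later run of 6 bases, CUGGGU, which starts at base 15 of miR-221-3p and at base 16 of miR-222-3p. Both mature 3p sequences are 23 bases long, and 11 of the 23 positions match when they are laid side by side without a gap. Reads of full length therefore differ in many bases between them. Of the mature miRNA names in the table, 3 carry the seed GCUACAU. The third is miR-1928, which was not analysed here. The seed of miR-221-5p, CCUGGCA, was found in 1 name.

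The hairpins lie next to each other on the minus strand of the X chromosome, Mir221 at chrX:19146294-19146388 and Mir222 at chrX:19146893-19146971, with 504 bp between them. They are printed to show where the arms sit, with the mature arms of the table in capitals.
Mir221: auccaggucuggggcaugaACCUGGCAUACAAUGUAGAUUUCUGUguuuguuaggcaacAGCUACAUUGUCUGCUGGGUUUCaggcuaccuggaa
Mir222: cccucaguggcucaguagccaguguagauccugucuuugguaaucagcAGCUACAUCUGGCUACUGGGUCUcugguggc
No other gene of GENCODE M21 overlaps the stretch that holds the hairpins. The nearest, Gm14636, a processed transcript on the same strand, lies 10009 bp away, and the nearest protein-coding gene, Tex13c3, is 332448 bp away. The male mice carry a single X chromosome.

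Levels are given as reads per 1000000 reads on miRNAs (CPM), as the authors deposited them. The libraries held 17600785 to 19471251 reads in the PND group and 14849471 to 16093488 in the CON group, so every PND library was deeper. A level of 3 reads, the floor used here, was 0.154 to 0.202 CPM, far below each member in each library. Each read stands for 1 mature miRNA, so no division by length was needed. The intervals below are exact Poisson intervals of 95% and cover counting error only. Ligation and amplification can favour some sequences, which limits comparisons of levels between different miRNAs.

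miR-221-3p was the most abundant arm of the pair. It stood at 3984, 4151 and 4427 CPM in PND mice 1 to 3 and at 3916, 3702 and 3860 CPM in CON mice 1 to 3. All 3 PND values lay above all 3 CON values, although PND mouse 1 exceeded CON mouse 1 by little. These values rest on 54975 to 78419 reads per library. The interval of CON mouse 2, the lowest library, ran from 3671 to 3733 CPM, and that of PND mouse 3, the highest, from 4396 to 4458 CPM. In mean level miR-221-3p ranked 38th of all entries, and its rank in single libraries lay between 36 and 39. The entries next to it were miR-21a-5p, which ran from 2802 to 5128 CPM over the libraries, and miR-7b-5p, from 2795 to 4328 CPM, so its level overlapped with both neighbours.

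miR-222-3p, which carries the same seed, was the second most abundant arm. It stood at 1246, 1265 and 1257 CPM in PND mice 1 to 3 and at 1293, 1148 and 1134 CPM in CON mice 1 to 3. The highest value belonged to a CON mouse, the PND mice were nearly equal, and the groups overlapped. The values rest on 17041 to 24260 reads per library. It ranked 63rd in mean level, between miR-27a-3p (1219 to 1265 CPM) and miR-185-5p (1081 to 1288 CPM), and the ranges of all of these overlapped.

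miR-221-5p, the lesser arm of the miR-221 hairpin, stood at 78.9, 93.2 and 79.2 CPM in PND mice 1 to 3. In CON mice 1 to 3 it stood at 88.5, 90.0 and 85.9 CPM. PND mouse 2 held the highest value and the other 2 PND mice the lowest, so the groups overlapped. It had 1337 to 1640 reads per library and ranked 205th in mean level, between miR-182-5p (15.7 to 248 CPM) and miR-106b-3p (77.7 to 91.7 CPM), both of which it overlapped.

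miR-222-5p was the least abundant arm. It stood at 15.5, 14.1 and 16.7 CPM in PND mice 1 to 3 and at 13.3, 15.7 and 16.2 CPM in CON mice 1 to 3, which is 203 to 302 reads per library. The widest interval of a library ran from 13.7 to 17.8 CPM, in CON mouse 2, so most differences between its libraries were within counting error. The order miR-221-3p, miR-222-3p, miR-221-5p, miR-222-5p held in every library, and the ranges of the 4 arms did not overlap each other.

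**Figure D1:**
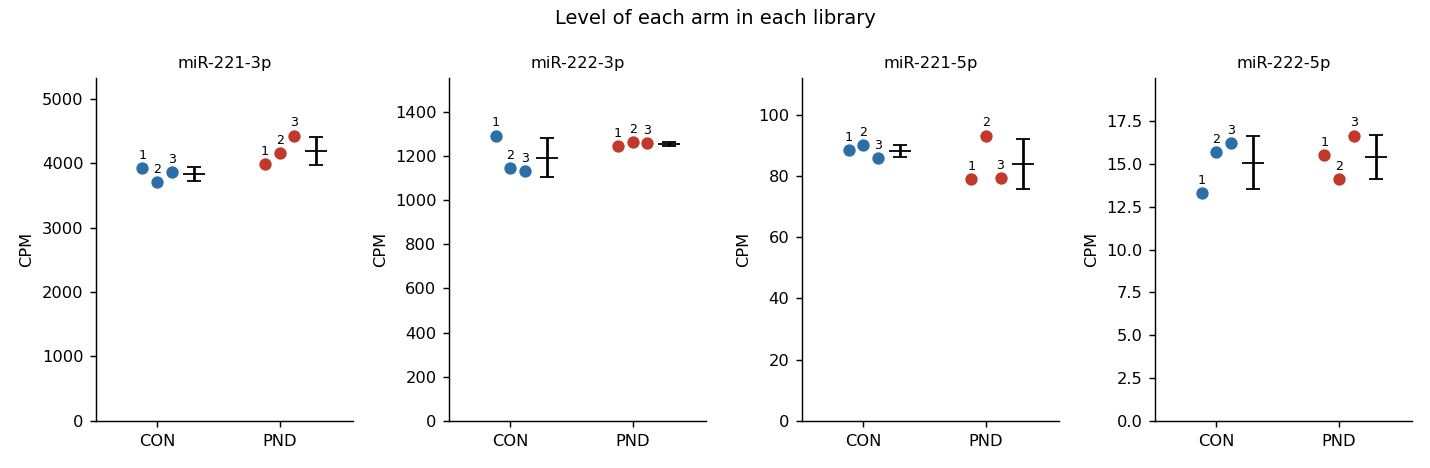
Level of each arm in CPM (vertical axes from 0) in the CON (blue) and PND (red) libraries, with the mouse number at each point and the mean ± SD of each group (n = 3) in black. The PND values of miR-221-3p, 3984 to 4427 CPM, all lie above its CON values, 3702 to 3916 CPM, and the groups overlap for the other 3 arms.

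The 3p arms varied little from mouse to mouse. The coefficient of variation within groups, pooled over PND and CON, was 4.30% for miR-221-3p, 5.26% for miR-222-3p, 7.09% for miR-221-5p and 9.40% for miR-222-5p. Over the 361 entries that averaged 10 CPM or more, the median was 13.6%, and 5.26% of them had a smaller value than miR-221-3p and 9.42% a smaller value than miR-222-3p. For miR-221-3p counting error alone came to a coefficient of variation of 0.357% to 0.426% per library, and for miR-222-5p to 5.75% to 7.02%. The spread of miR-221-3p between libraries was thus many times its counting error, while the spread of miR-222-5p was not far above it.

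The effect of anesthesia and surgery on each arm was tested by comparing the PND group with the CON group. No arm of the pair was called different. Differential expression was tested with limma on log2(CPM + 1) over all 1189 entries. The paper names edgeR for the p-value, TPM for the fold change, and limma as well. In this limma test the study's limits, an unadjusted p under 0.05 and a change over 2-fold, were met by 0.0841% of the entries. An adjusted p under 0.05 was met by 0.421% and an unadjusted p under 0.05 by 5.13%. Of the 3 members 0 met any of these limits, and neither did miR-222-5p. edgeR's exact test, its quasi-likelihood test and DESeq2 were run on reads recovered from the CPM. With each, 0 of the 3 members had an unadjusted p under 0.05 as well. Over all entries such a p was found for 41 of 1189 in the exact test and 50 of 1189 in the quasi-likelihood test. DESeq2 gave it to 28 of 1184. Both limits of the study were met by 31, 32 and 11 entries, in the same order.

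miR-221-3p averaged 4188 ± 224 CPM over the PND mice, against 3826 ± 111 CPM over the CON mice (SD, n = 3 each). The PND mean was 9.45% higher, with a log2 fold change of 0.13 (standard error 0.09, adjusted p = 0.77 from limma). The 95% interval of the fold change ran from 0.953 to 1.26. The groups did not overlap (two-sided exact permutation p = 0.1, which is the lower limit for 3 mice against 3). Of the 361 entries with a mean of at least 10 CPM, 8.59% were higher in all PND mice than in all CON mice and 0.277% were lower, so miR-221-3p was 1 of 31 such entries. The median log2 fold change of the 361 entries was 0.14, and 79.2% of them had a positive value, so the difference of miR-221-3p was that of a typical abundant miRNA on the CPM scale.

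miR-222-3p averaged 1256 ± 9.65 CPM over the PND mice, against 1191 ± 88.1 CPM over the CON mice (SD, n = 3 each). limma gave a log2 fold change of 0.08 (standard error 0.09, adjusted p = 0.79) and the 95% interval of the fold change ran from 0.907 to 1.23. The exact permutation test gave a two-sided p of 0.4. The SD of the CON group was several times that of the PND group, and it came from CON mouse 1, which stood apart from the other CON mice.

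miR-221-5p averaged 83.8 ± 8.16 CPM over the PND mice, against 88.2 ± 2.07 CPM over the CON mice (SD, n = 3 each). limma gave a log2 fold change of -0.08 (standard error 0.12, adjusted p = 0.87), with a fold change between 0.781 and 1.15 at 95% (exact permutation test, two-sided, p = 0.4). Among the 361 entries, 7.48% had a lower log2 fold change. miR-222-5p averaged 15.4 ± 1.28 CPM over the PND mice, against 15.1 ± 1.56 CPM over the CON mice (SD, n = 3 each). limma gave it a log2 fold change of 0.03 (standard error 0.15, adjusted p = 0.97), with a fold change between 0.805 and 1.30 at 95%. A change of 2-fold lay outside the 95% interval of each of the 4 arms.

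**Figure D2:**
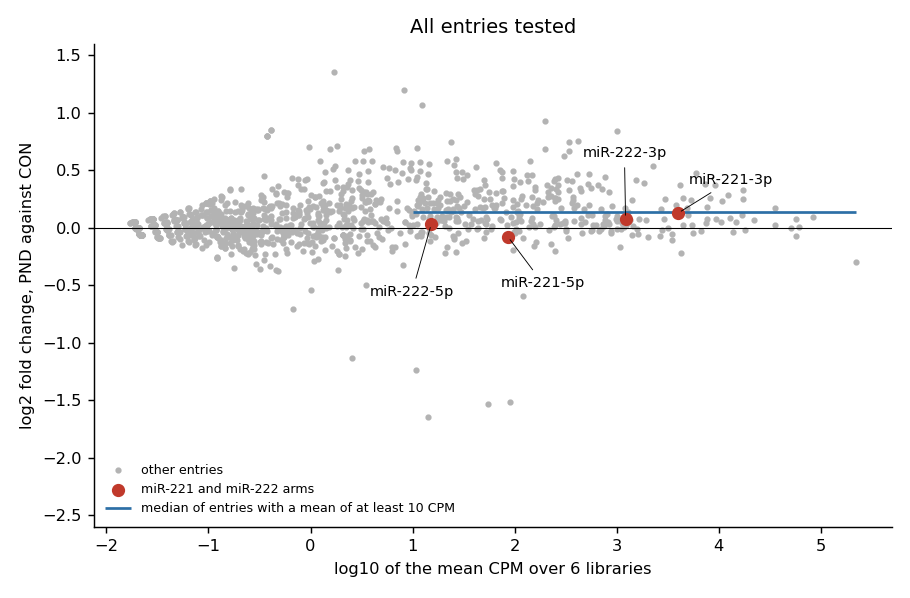
Log2 fold change of PND against CON (limma on log2(CPM + 1), vertical axis) against the log10 of the mean CPM over the 6 libraries for all 1189 entries, with the 4 arms of the pair in red. The blue line is the median of the 361 entries with a mean of at least 10 CPM, 0.14, beside 0.13 for miR-221-3p, 0.08 for miR-222-3p, 0.03 for miR-222-5p and -0.08 for miR-221-5p.

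The direction for the 3p arms depended on what the reads were divided by. A single miRNA, the neuronal miR-128-3p, took 23.2%, 19.0% and 17.6% of the reads in PND mice 1 to 3 and 22.7%, 29.2% and 21.6% in CON mice 1 to 3. The library with the largest share of miR-128-3p, CON mouse 2, had the lowest miR-221-3p, and the library with the smallest share, PND mouse 3, had the highest. When miR-128-3p was left out of the total, an alternative added with the values in view, miR-221-3p stood at 5191, 5123 and 5375 per 1000000 other reads in PND mice 1 to 3 and at 5068, 5232 and 4921 in CON mice 1 to 3. The groups then overlapped, and the log2 fold change of miR-221-3p was 0.04 (adjusted p = 0.90 from limma, against 0.58 to 1 over all settings run). On this scale miR-222-3p turned to -0.01 and miR-221-5p stood at -0.16.

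Scaling by TMM factors moved the median log2 fold change of the 361 abundant entries from 0.14 to 0.02. miR-221-3p then had a log2 fold change of 0.01, miR-222-3p turned to -0.04 and miR-221-5p moved to -0.20. With DESeq2 size factors the values were -0.02 for miR-221-3p, -0.07 for miR-222-3p and -0.23 for miR-221-5p. CON mouse 2, the lowest library for miR-221-3p in CPM, became the highest after TMM scaling, at 4304 against 3796 to 4144 in the other 5. miR-221-5p was the arm whose direction, lower in PND, was the same on every scale, and it did not pass the test on any (adjusted p between 0.77 and 1 from limma, edgeR and DESeq2).

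**Figure D3:**
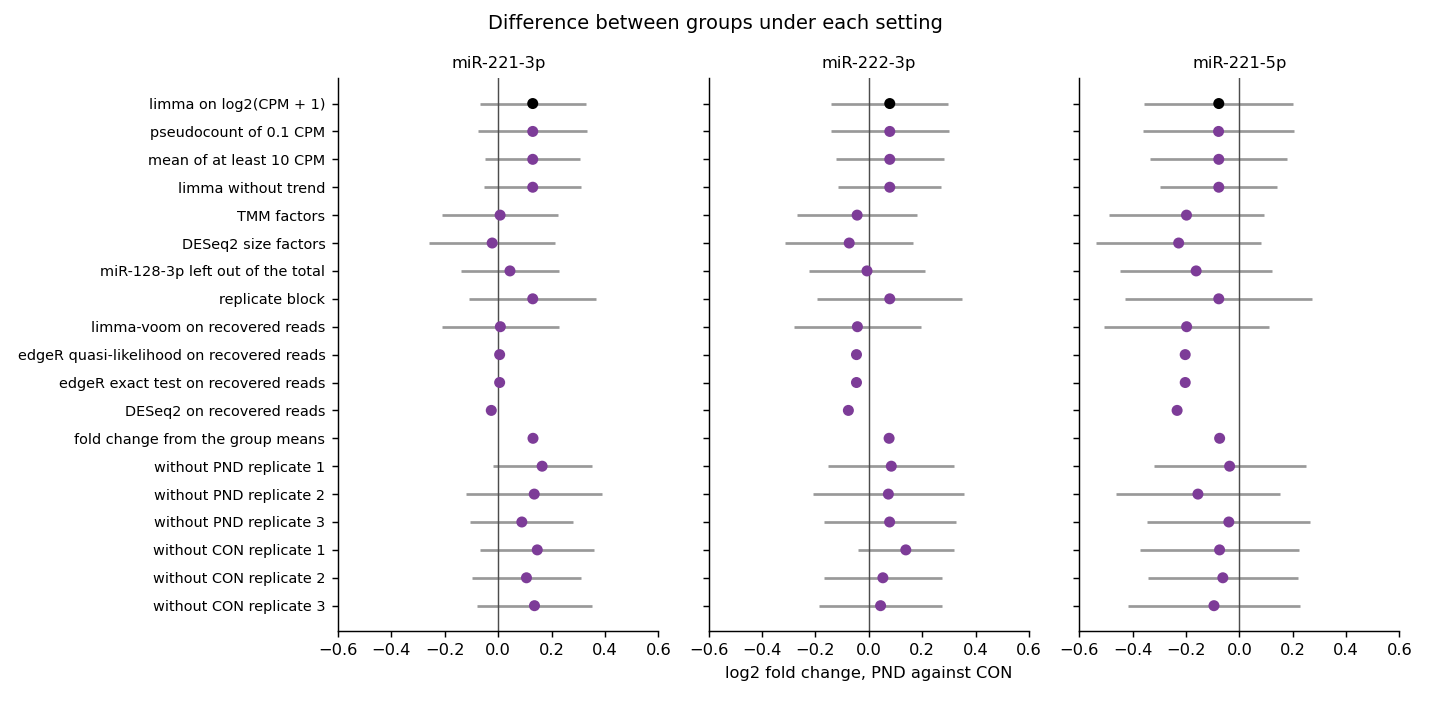
Log2 fold change of PND against CON (horizontal axis) for the 3 members under each setting, with limma on log2(CPM + 1) in black, the other settings in purple, and the 95% interval from limma as a grey line where the setting gives one. The values run from -0.03 to 0.16 for miR-221-3p, from -0.08 to 0.14 for miR-222-3p and from -0.23 to -0.04 for miR-221-5p, and every interval drawn includes 0.

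Ratios within a library do not depend on its total. The first question was which arm of each hairpin was kept and whether this differed between the groups. In every library the 3p arm was by far the greater. For miR-221 there were 50.5, 44.5 and 55.9 reads of the 3p arm for each read of the 5p arm in PND mice 1 to 3, and 44.2, 41.1 and 44.9 in CON mice 1 to 3. PND mice 1 and 3 stood above all CON mice and PND mouse 2 stood among them, so the groups overlapped. The mean ratio was 50.3 ± 5.68 over the PND mice, against 43.4 ± 2.02 over the CON mice (SD, n = 3 each). The log2 difference was 0.21 (standard error 0.10, exact permutation test, two-sided, p = 0.2). It kept its sign with each mouse left out, between 0.13 and 0.29.

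For miR-222 the arm ratio was 80.3, 89.8 and 75.5 in PND mice 1 to 3 and 97.3, 73.1 and 69.9 in CON mice 1 to 3. CON mouse 1 was the highest library and the other CON mice were the lowest, so the groups overlapped. The means were 81.9 ± 7.28 and 80.1 ± 15.0 for PND and CON mice (SD, n = 3 each), with a log2 difference of 0.04 (standard error 0.17, exact permutation test, two-sided, p = 0.8). With the low count of miR-222-5p, counting error alone reached 0.10 on the log2 scale in a library.

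These arm ratios were compared with those of other hairpins as a description. In 153 hairpins both arms had a read in every library and a mean of at least 1 CPM, and the 3p arm was the greater one in 76 of them. The median fold between the arms was 10.8. A smaller imbalance than that of miR-221 was seen in 71.2% of these hairpins, and a smaller one than that of miR-222 in 76.5%. Of the 86 hairpins whose lesser arm had at least 10 CPM, 59.3% had a smaller difference between PND and CON in the arm ratio than miR-221, and 15.1% a smaller one than miR-222. The PND to CON difference in the arm ratio of miR-221 was thus near the middle of those of other hairpins.

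The second question was the balance between the 2 miRNAs with the shared seed. There were 3.20, 3.28 and 3.52 reads of miR-221-3p for each read of miR-222-3p in PND mice 1 to 3, and 3.03, 3.23 and 3.40 in CON mice 1 to 3. The groups overlapped between 3.20 and 3.40, with means of 3.33 ± 0.168 (SD, n = 3) and 3.22 ± 0.188 (SD, n = 3). The log2 difference was 0.05 (standard error 0.06, exact permutation test, two-sided, p = 0.5), and with 1 mouse left out it lay between 0.01 (without CON mouse 1) and 0.09 (without CON mouse 3). The 5p arms stood at a ratio of 5.09, 6.61 and 4.76 in PND mice 1 to 3 and 6.66, 5.74 and 5.30 in CON mice 1 to 3, with a log2 difference of -0.11 (standard error 0.17, exact permutation test, two-sided, p = 0.5). With 1 mouse left out the 5p difference lay between -0.26 (without PND mouse 2) and -0.02 (without PND mouse 3). In all, 4 ratios were compared, and 0 of them separated the groups.

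Together the 3p arms, which carry the seed GCUACAU, summed to 5230, 5416 and 5684 CPM in PND mice 1 to 3 and to 5209, 4850 and 4993 CPM in CON mice 1 to 3. miR-221-3p made up 75.2% to 77.9% of this sum in every library. In CPM the sum was higher in each PND mouse than in each CON mouse, though by little between PND mouse 1 and CON mouse 1. As miR-221-3p is most of the sum, this is largely the result of that arm again. Of the 361 abundant entries, 8.59% were likewise higher in all PND mice. With miR-128-3p left out of the total the sum was 6814, 6684 and 6902 in PND mice 1 to 3. In CON mice 1 to 3 it was 6741, 6853 and 6366, and the groups overlapped.

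**Figure D4:**
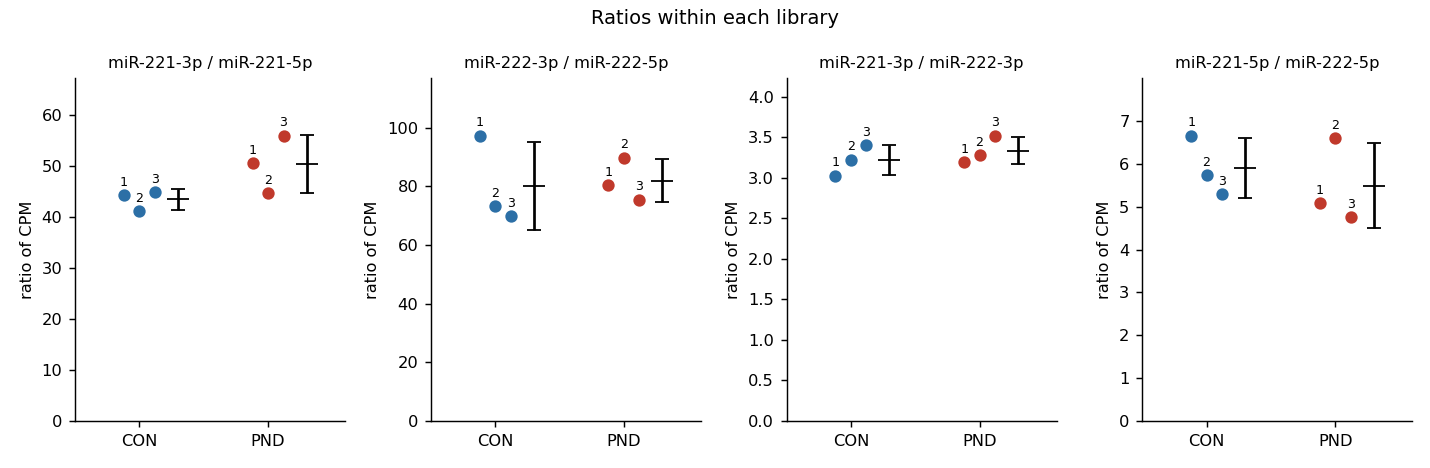
Ratios of CPM within each library (vertical axes from 0) for the arms of each hairpin and for the same arm of both hairpins, in CON (blue) and PND (red), with the mouse number at each point and mean ± SD (n = 3) in black. The miR-221 arm ratio runs from 41.1 to 44.9 in CON and from 44.5 to 55.9 in PND, and the groups overlap in all 4 ratios.

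Co-variation was tested in 3 pairs of members over the 6 mice, on log2(CPM + 1). miR-221-3p and miR-222-3p had a Pearson's r of 0.61 (exact permutation p = 0.19, adjusted over the 3 pairs 0.58) and a Spearman's rho of 0.54 (exact permutation p = 0.30, adjusted 0.66). Without PND mouse 3 and CON mouse 2, the mice farthest from the median of miR-221-3p, r was 0.53. Over deviations from the group means it was 0.35. The relation was positive in each of these forms and did not pass the test in any of them that was tested.

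The arms of miR-221 had an r of -0.43 (exact permutation p = 0.41, adjusted 0.62) and a rho of -0.26 (exact permutation p = 0.66, adjusted 0.66). Without the 2 farthest mice r was 0.43, and with TMM factors it was 0.33, so its sign was not stable. miR-221-5p and miR-222-3p had an r of -0.13 (exact permutation p = 0.80, adjusted 0.80) and a rho of 0.26 (exact permutation p = 0.66, adjusted 0.66), which also changed sign with the scale. Over the 86 hairpins whose lesser arm had at least 10 CPM, the median r between the arms was 0.60, and 14.0% had a lower r than miR-221. For miR-222, r between the arms was -0.59 in CPM, and 4.65% of the hairpins had a lower r. It was not computed on the other scales. After TMM scaling CON mouse 2 held the highest value of both miR-222 arms, at 1334 and 18.2. The spread of miR-222-5p was also not far above its counting error. These correlations over hairpins are descriptions, and all of them share the 6 library totals.

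The miRNAs most like the 3p arms were found among those with a miRBase name and a mean of at least 10 CPM, 359 for each arm, by Pearson's r of log2(CPM + 1) over the 6 libraries. Values within a library share its total, so these correlations are descriptions and carry no test. For miR-221-3p they were miR-362-3p (r = 0.98), miR-582-3p (0.98), miR-592-5p (0.98), miR-140-3p (0.96) and miR-3535 (0.96). miR-362-3p, which is made from an X-linked hairpin too, stood at 9.14, 12.5 and 20.0 CPM in PND mice 1 to 3 and at 9.36, 5.59 and 8.95 CPM in CON mice 1 to 3. It thus spanned a wider range than miR-221-3p, with the same mice at the top and the bottom. In total 35 of the 359 had an r above 0.9 with miR-221-3p. miR-222-3p came 189th of the 359 in likeness to miR-221-3p, and miR-221-5p came 323rd.

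For miR-222-3p the most alike were miR-212-3p (r = 0.98), miR-3083-5p (0.96), let-7e-3p (0.95), miR-425-3p (0.94) and let-7f-1-3p (0.93). miR-212-3p, one of the miRNAs that neuronal activity induces, stood at 97.0, 109 and 103 CPM in PND mice 1 to 3 and at 106, 81.6 and 75.6 CPM in CON mice 1 to 3. As for miR-222-3p, CON mouse 1 stood with the PND mice and CON mice 2 and 3 stood below. The other arm of that hairpin, miR-212-5p, lacked this pattern. It was highest in CON mouse 2, at 804 CPM, against 676 CPM in CON mouse 1. A link of miR-222-3p to neuronal activity was not tested. An r above 0.9 with miR-222-3p was seen for 6 of the 359, and miR-221-3p came 140th. The lists of the 5 most alike miRNAs had none in common. In CPM the 3p arms of the neighbouring hairpins did not follow each other more closely than they followed many other miRNAs. Likeness was not ranked on the other scales.

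**Figure D5:**
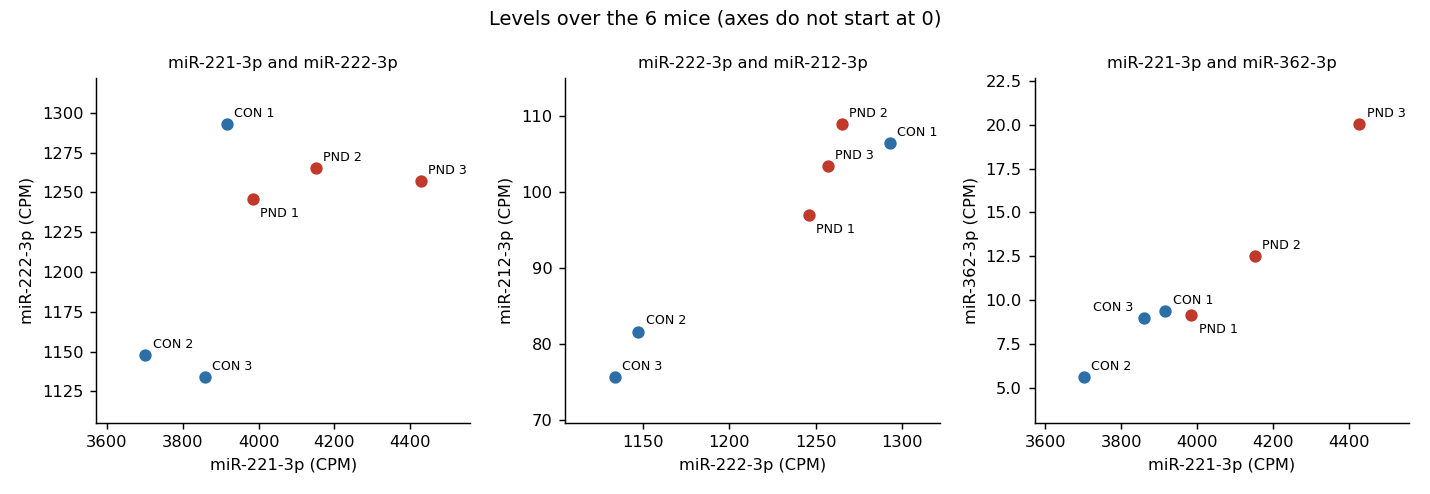
Levels in CPM over the 6 mice (CON blue, PND red, axes not from 0) of miR-221-3p and miR-222-3p (left), miR-222-3p and its most alike miRNA, miR-212-3p (middle), and miR-221-3p and its most alike miRNA, miR-362-3p (right). Pearson's r on log2(CPM + 1) is 0.61, 0.98 and 0.98.

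The pair was set beside a list of 13 miRNAs known to respond to neuronal activity, stress, hypoxia or inflammation, all of which the files list. None was called at an adjusted p under 0.05, and 2 of the 13, against 5.13% of all entries, had an unadjusted p under 0.05, both higher in PND. In CPM 10 of the 13 had a positive log2 fold change and 3 a negative one. Of the entries with at least 10 CPM, 79.2% were positive. The positive ones of the list numbered 9 with TMM factors, 8 with DESeq2 size factors and 9 with miR-128-3p left out of the total. The shares of those entries were then 51.5%, 48.8% and 58.3%. miR-34a-5p, which p53 induces, stood at 105, 140 and 142 CPM in PND mice 1 to 3 and at 90.0, 94.95 and 106 CPM in CON mice 1 to 3, with groups that overlapped (log2 fold change 0.40, standard error 0.15, adjusted p = 0.77 from limma). miR-210-3p, which hypoxia induces, had the largest log2 fold change of the list, 0.42 (standard error 0.17, adjusted p = 0.77 from limma). It stood at 33.7, 36.9 and 35.9 CPM in PND mice 1 to 3 and at 31.7, 20.7 and 27.5 CPM in CON mice 1 to 3, without overlap. Of the 361 entries with at least 10 CPM, 8.59% were likewise higher in all PND mice. The median log2 fold change of the 13 was 0.25 in CPM, against 0.13 for miR-221-3p, 0.05 for all entries tested and 0.14 for the entries with at least 10 CPM, which 12 of the 13 belong to. The list median was 0.15 with TMM factors, 0.13 with DESeq2 size factors and 0.19 with miR-128-3p left out of the total. On these scales the median of the entries with at least 10 CPM was 0.02, -0.01 and 0.05, in the same order.

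Markers of the cells that the tissue can hold were read in the same libraries. The markers of endothelium and mural cells, where the pair is abundant, summed to 22053 to 23890 CPM in the PND group. In the CON group they summed to 19026 to 24042 CPM. All 4 had a positive log2 fold change in CPM, with a median of 0.30. Of the entries with at least 10 CPM, 79.2% were positive, with a median of 0.14. Of the 4 markers 1, miR-145a-5p, had an unadjusted p under 0.05, against 5.13% of all entries (log2 fold change 0.34, adjusted p = 0.77 from limma). The 4 neuronal markers summed to 281072 to 316264 CPM and 308105 to 373298 CPM. Most of this sum was miR-128-3p, which averaged 199530 CPM in PND and 245091 CPM in CON mice (log2 fold change -0.29). miR-132-3p was lower in PND too (-0.07), while miR-124-3p (0.24) and miR-9-5p (0.09) had positive values. The median of the 4 was 0.01. The 2 oligodendrocyte markers summed to 1567 to 1756 CPM and 1382 to 1597 CPM. Markers of leukocytes and myeloid cells summed to 299 to 331 CPM and 279 to 328 CPM, with miR-223-3p at 1.44 to 2.42 CPM over all libraries. Of these 4, miR-142a-5p alone had an unadjusted p under 0.05, against 5.13% of all entries (log2 fold change 0.51, adjusted p = 0.77 from limma). The log2 fold changes of the others were 0.44 for miR-142a-3p, 0.05 for miR-150-5p and -0.23 for miR-223-3p. Red blood cell markers summed to 47.0 to 99.5 CPM and 31.9 to 54.5 CPM, with miR-144-3p at 0 in 3 libraries. The highest sum was that of PND mouse 1, where miR-451a stood at 40.9 CPM, against 0.621 to 3.08 CPM in the other 5 libraries. Markers of choroid plexus and epithelium summed to 850 to 883 CPM and 632 to 2244 CPM, the highest in CON mouse 1. In CPM that mouse was also the highest library for miR-222-3p. After TMM scaling CON mouse 2 was the highest for miR-222-3p, at 1334 against 1254 in CON mouse 1. Of these 7 markers, 6 had a negative log2 fold change, the median was -1.23, and miR-204-5p had 0.07. In CON mouse 1 miR-200a-3p stood at 465 CPM, against 12.2 to 19.4 CPM in the other 5 libraries. There miR-204-5p stood at 921 CPM, against 583 to 792 CPM in the others. The part of any of these cells in the levels of miR-221 and miR-222 was not tested, and in bulk tissue fewer cells of a type and less RNA per cell cannot be told apart.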

How the data were processed

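Small RNA of 6 prefrontal cortex samples was analysed, grouped by the treatment in the labels. The authors filtered reads with fastx, aligned those of small RNA length with Bowtie (0.12.2 in the submitters' processing notes, which list the builds mm8 and mm9 without a role), assigned them by miRBase positions, named TMM, and deposited CPM, which they call TPM. The miRBase release and the rule for reads with several matches are not given in the sources used here. The paper names a small RNA library kit, the labels a total RNA kit.

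In each library 100% of the CPM values were whole multiples of 1 read (within 0.01 read). These reads gave depth, floors and count tests. PND was tested against CON by limma 3.58.1 (R 4.3.3, trended prior, no covariate), fitted to log2(CPM + 1) for the 1189 entries. The pseudocount understates changes of low entries. The Benjamini-Hochberg adjustment ran over every entry tested. Ratios, correlations and single levels used exact permutation tests over mice, two-sided. The quasi-likelihood test of edgeR 4.0.16 called 5 entries at an adjusted p under 0.05, none of them a member. edgeR's exact test, limma-voom and DESeq2 1.42.0 were alternatives. The limma, limma-voom, edgeR and DESeq2 fits were tested on simulated data. p-values measure the spread between these 3 mice a group. The members and lists were chosen with earlier results of these data known. Named miRNAs were the members, the other arm, seed sharers, the 5 most alike to each 3p arm, neighbours in level, and, of the activity and stress list, those with an unadjusted p under 0.05 and the largest change. miR-212-5p was named beside miR-212-3p with the values in view. Hairpin positions are those of RefSeq GRCm38.p6 and GENCODE M21, matched by name.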

Additional observations from a re-analysis of the deposited data

How the results depend on the processing

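None of the differences between groups, ratios or correlations passed its test under any setting that gave one. For the ratios this was fixed in advance. Their exact test cannot go below 0.1, or below 0.25 with the replicate block, so it could not fall under 0.05. miR-221-3p kept its positive difference in CPM except with DESeq2 size factors (-0.023) and in DESeq2 (-0.026), and ran from 0.0885 to 0.1645 with 1 mouse left out. miR-222-3p turned negative with TMM factors (-0.0437), DESeq2 size factors (-0.0734), miR-128-3p left out of the total (-0.0067), limma-voom (-0.0427), both edgeR tests (-0.046) and DESeq2 (-0.0765). miR-222-5p did so in the same settings (-0.0822, -0.110, -0.0478, -0.0824, -0.0967 and -0.0962, and -0.128), and without PND mouse 3 or CON mouse 1, with -0.0491 to 0.0924 over the mice left out. These scalings change the median of all abundant entries. The miR-222 arm difference ran from -0.0470 to 0.191 with 1 mouse left out.

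The correlation of miR-221-3p with miR-222-3p stayed positive in every setting, at 0.348 over deviations from the group means and 0.294 with miR-128-3p left out of the total, and ran from 0.405 to 0.811 with 1 mouse left out. That of miR-221-3p with miR-221-5p was 0.327 with TMM factors, 0.594 with DESeq2 size factors, 0.433 without the 2 farthest mice and -0.160 over group deviations, and ran from -0.777 to 0.0514 with 1 mouse left out (0.0514 without PND mouse 3). That of miR-221-5p with miR-222-3p was 0.619, 0.767, 0.497 and 0.141 in the same order, 0.346 with miR-128-3p left out of the total, and ran from -0.403 to 0.0847 with 1 mouse left out.

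Deviations of same-numbered mice correlated at r = -0.128, 0.122 and 0.508, and PND mouse 1 was closest to CON mouse 2 (0.503), so the numbers were not taken to pair the mice. With the replicate block the log2 fold changes were 0.13 for miR-221-3p, -0.08 for miR-221-5p and 0.08 for miR-222-3p, with 0 members called, and the calls over all entries at an adjusted p under 0.05 went from 5 to 0. Entries past both limits of the study numbered 1 in the limma test, 32 in edgeR's quasi-likelihood test, 31 in its exact test, 11 in DESeq2 and 22 with a pseudocount of 0.1. With 3 mice a group the permutation test of group labels cannot go below 0.1.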
